A study of Homo sapiens with 6 samples.

Results

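NUAK1, NUAK2, SIK2, SIK3, MARK2, MARK3, MARK4, PRKAA1, PRKAA2 and STK11 were examined, the kinases of the AMPK-related family chosen around NUAK1 together with the kinase that activates them. They were found by gene symbol and are 10 of the 17047 genes in the expression table. All 10 passed the filter on low counts, which left 12959 genes to be tested. RNA was sequenced from HCT116 cells, an established human colorectal carcinoma line, in 3 libraries with PLEK2 shRNA and 3 with shNC, a non-targeting shRNA. Both shRNAs were carried by the pLKO.1 lentiviral vector, and a single shRNA against PLEK2 is listed, so effects of the target gene and of that particular sequence cannot be told apart. The libraries were made from polyadenylated RNA and read as single ends of 50 bases. The set was chosen by the measured change of NUAK1 between PLEK2 shRNA and shNC in these same libraries, so the changes of the 10 genes are given as a description and without a test.

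LKB1, the protein of the tumour suppressor gene STK11, works in a complex with the pseudokinase STRAD and the scaffold protein MO25. It phosphorylates a threonine in the activation loop of the AMPK catalytic subunits and of the related NUAK, SIK, MARK and BRSK kinases, which makes them active. AMPK senses low cellular energy, SIKs hold CRTC coactivators and class IIa histone deacetylases in the cytoplasm, MARKs detach microtubule-associated proteins and set cell polarity, and NUAK1 acts on the myosin phosphatase through its subunit MYPT1. Inherited loss of STK11 causes Peutz-Jeghers syndrome, in which polyps grow in the gut.

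The 9 kinases that LKB1 activates share this threonine. Its codon and the 12 bases on either side are shown because they are the common feature that joins the family, and they let the relatedness of the members be seen. Each stretch of 27 bases is the coding strand of the GENCODE 44 transcript on GRCh38, with the codon of the threonine in capitals. Codons are counted from the start codon.
NUAK1: aagttcttacaaACGttttgtgggagt
NUAK2: aagttcctgcagACAttctgtgggagc
SIK2: gaactgctggcaACAtggtgtggcagc
SIK3: cagctgctgaagACCtggtgtggcagc
MARK2: aacaagctggacACCttctgtggcagt
MARK3: ggtaaactcgacACGttttgtggcagt
MARK4: tcgaagctggacACGttctgcgggagc
PRKAA1: gaatttttaagaACAagttgtggctca
PRKAA2: gaatttctgagaACTagttgcggatct

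In NUAK1 the threonine is codon 211, within exon 5 of 7 at chr12:106072778-106072804 on the minus strand. In NUAK2 it is codon 208, within exon 5 of 7 at chr1:205306242-205306268, also on the minus strand. The stretches of these 2 genes are the same at 21 of 27 bases, the closest match to NUAK1 in the family. SIK2 (codon 175, chr11:111700918-111700944, plus strand) and SIK3 (codon 221, chr11:116897259-116897285, minus strand) also share 21 bases. The AMPK subunits PRKAA1 (codon 183, chr5:40769451-40769477, minus strand) and PRKAA2 (codon 172, chr1:56693791-56693817, plus strand) share 21 as well. MARK2 (codon 208, chr11:63899952-63899978, plus strand) shares 20 bases with MARK3 (codon 211, chr14:103465635-103465661, plus strand) and 20 with MARK4 (codon 214, chr19:45271550-45271576, plus strand). Against NUAK1, the kinases outside the NUAK pair share 13 to 16 bases.

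The estimated counts of a library summed to between 14377532 and 15602732. PLEK2, the targeted gene, had 72.63 to 85.97 CPM (counts scaled to the library total with a TMM factor) with shNC and 16.02 to 34.95 with PLEK2 shRNA, without overlap. Replicate 1 of both groups stood apart from replicates 2 and 3. Its deviations from the mean of its group, over genes, correlated at 0.736 with those of the other replicate 1. With those of replicates 2 and 3 of the other group they correlated at -0.629 to -0.551. Deviations cancel within a group, so these negative values follow on balance from the positive one. Changes are therefore given as the log2 ratio between PLEK2 shRNA and shNC in the fit without a term for the number, then in the fit with the number as a block, and within same-numbered libraries. Nothing in the labels says that the libraries of a group came from separate cultures, so their spread may be technical. Defining epithelial markers summed to 5130 to 5900 FPKM (a count scaled to transcript length and library total) with shNC and 4290 to 5460 with PLEK2 shRNA. Of these 6 markers, 5 were lower with PLEK2 shRNA in all 3 same-numbered pairs, beside 21.1% of all tested genes. EPCAM was the exception, at 0.00. In edgeR, 0 of the 6 passed an adjusted p of 0.05 with or without the block, beside 0.849% and 0.0% of all tested genes. The median log2 change of the 6 was -0.206 with the block. The part of this shift in the changes of the kinases was not tested. The 3 haematopoietic markers in the table summed to 0.56 to 0.84 FPKM over the 6 libraries, and the 3 endothelial markers to 0.05 to 0.19. The fibroblast markers summed to 4.27 to 5.95 FPKM, nearly all of it COL1A1, with at most 1 count for COL1A2 in any library.

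NUAK1 (chromosome 12, 106063345 to 106138954, minus strand) encodes a kinase involved in cell adhesion and in the response to oxidative and metabolic stress. Its level was 19.29, 20.68 and 18.42 CPM in shNC replicates 1, 2 and 3, and 6.803, 11.04 and 10.72 CPM in PLEK2 shRNA replicates 1, 2 and 3. Every PLEK2 shRNA library lay below every shNC library, and replicate 1 was the lowest of the 6. These levels rest on 296, 293 and 266 counts with shNC and 107, 168 and 162 with PLEK2 shRNA, all whole numbers. The 95% Poisson interval of the lowest count was 87.7 to 129 and that of the lowest shNC count 235 to 300, which covers counting error only. NUAK1 averaged 19.46 ± 1.141 CPM with shNC and 9.521 ± 2.359 CPM with PLEK2 shRNA (SD, n = 3 libraries each).

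The log2 change of NUAK1 was -1.03 (standard error, SE, 0.18) without the block and -1.05 (SE 0.13) with it, a level 2.05-fold and 2.06-fold lower. Within same-numbered libraries it was -1.50, -0.91 and -0.78 in pairs 1, 2 and 3, or 2.84-fold, 1.87-fold and 1.72-fold lower. Pair 1 also held the largest change of PLEK2 itself, at -2.42 against -1.17 and -1.25 in pairs 2 and 3. Without replicate 1 in both groups, the blocked change of NUAK1 was -0.84. In bulk RNA, fewer cells that express a gene and less of its RNA per cell cannot be told apart.

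**Figure D1:**
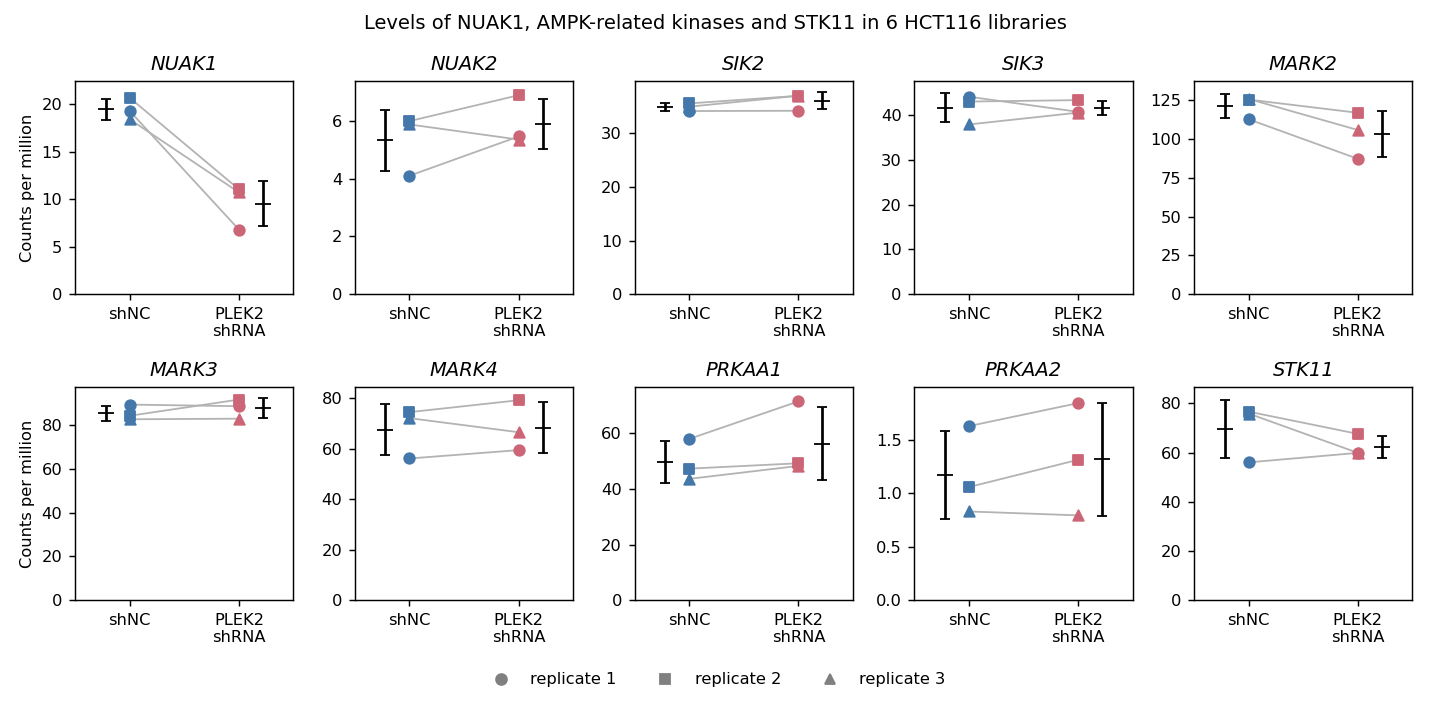
Level of each of the 10 kinases in CPM, with shNC (blue) and PLEK2 shRNA (red). Symbols give the replicate number, lines join same-numbered libraries, and black bars show the mean ± SD of 3 libraries; each axis starts at 0 and has its own scale. NUAK1 is the panel in which the groups lie apart, between 18.42 and 20.68 with shNC and between 6.803 and 11.04 with PLEK2 shRNA.

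The groups of the other 9 genes overlapped. Groups without overlap were thus seen for 1 of 10 members, beside 9.21% of all tested genes (5.12% lower and 4.08% higher with PLEK2 shRNA), and NUAK1 was chosen for this pattern. At an adjusted p of 0.05, edgeR's quasi-likelihood test without the block called 0 of the 12959 genes (0.0%), while 3.09% (400 genes) reached an unadjusted p under 0.05. The blocked fit called 110 genes (0.849%), of which 94 were lower (0.725%) and 16 higher (0.123%), and among the members 1 of 10, NUAK1. Scaling by library totals instead, the blocked fit gave 109 lower and 83 higher. DESeq2's Wald test called 12 genes without the block and 45 with it. The blocked count moved with the pairs, to 528, 18 and 297 when replicate 1, 2 or 3 was left out of both groups. Those fits hold few libraries for their terms, so their calls rest largely on the spread estimated over all genes. A change of at least 1.5-fold with the block was seen in 1 of 10 members and in 1.13% of all tested genes. Nothing is read from these counts about the members, since the same contrast put NUAK1 among them.

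NUAK2 is the closest relative of NUAK1 by the sequence shown above, and also a substrate of LKB1. Its level was 4.106, 6.0 and 5.885 CPM with shNC and 5.468, 6.899 and 5.361 CPM with PLEK2 shRNA. The lowest library was shNC replicate 1 and the highest PLEK2 shRNA replicate 2, so the groups lay across each other. The log2 change was 0.15 (SE 0.20), or 0.15 (SE 0.16) with the block, and 0.41, 0.20 and -0.13 within pairs 1, 2 and 3. The counts of NUAK2 were low, between 63 and 105.09, and not whole in 4 of 6 libraries, as counts are when reads are divided between genes, so its values are less certain than those of NUAK1. Per transcript length, NUAK1 stood at 2.84, 3.05 and 2.74 FPKM with shNC and 1.04, 1.65 and 1.62 with PLEK2 shRNA, whereas NUAK2 stood at 1.37, 2.03 and 1.96 and at 1.77, 2.35 and 1.77. NUAK1 thus made up 67.5%, 60.0% and 58.3% of the summed FPKM of the pair with shNC and 37.0%, 41.2% and 47.8% with PLEK2 shRNA. Such shares rest on the lengths that the deposited values imply, 6683 nt for NUAK1 and 2976 nt for NUAK2, which differ from the 5744 and 3391 nt of the GENCODE 44 transcripts. In PLEK2 shRNA replicate 3 the values were close, from 162 counts of NUAK1 (95% Poisson interval 138 to 189) and 81 of NUAK2 (64.3 to 101), so which of them was the more abundant there is not settled.

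The AMPK catalytic subunits differed widely in level. PRKAA1, which encodes AMPK alpha 1, had 57.88, 47.22 and 43.55 CPM with shNC and 71.33, 49.14 and 48.19 CPM with PLEK2 shRNA. Replicate 1 was the highest library in each group, 0.35 above replicates 2 and 3 on the log2 scale with shNC and 0.55 above them with PLEK2 shRNA. PRKAA1 was higher with PLEK2 shRNA in all 3 pairs, by 0.30, 0.06 and 0.15 on the log2 scale, as were 19.9% of all tested genes. The log2 change was 0.18 (SE 0.17) without the block and 0.17 (SE 0.07) with it. Without PLEK2 shRNA replicate 1 alone, the unblocked change was -0.03, so the sign of the unblocked fit depended on that library. The high shNC replicate 1 was kept there without its counterpart, and pairs 2 and 3 were both positive. With replicate 1 left out of both groups, the blocked change was 0.11.

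PRKAA2, which encodes AMPK alpha 2, had few reads, with 25, 15 and 12 counts with shNC and 29, 20 and 12 with PLEK2 shRNA. The 95% Poisson interval of 12 counts runs from 6.2 to 21, and that of 29 from 19.4 to 41.6. Its log2 change of 0.16 (SE 0.38) was smaller than its error, so no change was detectable at this depth. By FPKM, PRKAA1 made up 98.5% to 99.1% of the catalytic subunit transcripts in each of the 6 libraries.

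SIK2 and SIK3 are the SIK kinases of the set. SIK2 had 34.15, 35.57 and 34.96 CPM with shNC and 34.2, 36.99 and 37.0 CPM with PLEK2 shRNA. Its libraries lay closer together than those of any other member, with a pooled SD of 0.05 on the log2 scale within groups. The log2 change was 0.05 (SE 0.09), and the pairs gave 0.00, 0.06 and 0.08. SIK3 had 44.06, 42.98 and 37.87 CPM with shNC and 40.69, 43.3 and 40.51 CPM with PLEK2 shRNA. Its log2 change was -0.01 (SE 0.10), and pairs 1, 2 and 3 gave -0.11, 0.01 and 0.10, with no common sign.

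MARK2, a kinase of microtubule-associated proteins and of epithelial polarity, was the other member that was lower in all 3 pairs. It had 112.7, 125.4 and 125.8 CPM with shNC and 87.23, 116.9 and 105.8 CPM with PLEK2 shRNA. The groups overlapped, because shNC replicate 1 was below PLEK2 shRNA replicate 2. The log2 change was -0.23 (SE 0.11), or -0.24 (SE 0.06) with the block, and -0.37, -0.10 and -0.25 within pairs 1, 2 and 3. It was -0.17 with the block when replicate 1 was left out of both groups. Being lower in all 3 pairs was seen in 2 of 10 members, NUAK1 and MARK2, and in 21.1% of all tested genes. Being higher in all 3 pairs, with no minimum on the size of the difference, was counted in 2 of 10, SIK2 and PRKAA1. SIK2 was level in pair 1, at 34.15 and 34.2 CPM, so its place there rests on the unrounded values. With it, 4 of 10 had a common sign in either direction, beside 40.9% of all tested genes.

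The remaining MARK kinases showed no common direction. MARK3 had 89.3, 84.2 and 82.6 CPM with shNC and 88.56, 91.59 and 82.87 CPM with PLEK2 shRNA, with a log2 change of 0.04 (SE 0.08). MARK4, a kinase that phosphorylates tau and other microtubule-associated proteins, had 56.12, 74.46 and 72.08 CPM with shNC and 59.44, 79.17 and 66.52 CPM with PLEK2 shRNA. Replicate 1 was the lowest library of MARK4 in each group, 0.38 and 0.29 below replicates 2 and 3 on the log2 scale. These distances exceed its log2 change between the groups, 0.02 (SE 0.14).

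STK11, the activator of the family, had 56.05, 76.65 and 75.88 CPM with shNC and 59.89, 67.61 and 59.9 CPM with PLEK2 shRNA. The lowest library of the 6 was shNC replicate 1, and the groups overlapped. The log2 change was -0.15 (SE 0.13), or -0.14 (SE 0.08) with the block. The pairs differed in sign, with 0.10 in pair 1 and -0.18 and -0.34 in pairs 2 and 3. Over the 10 members the median log2 change with the block was 0.028, beside -0.002 over all tested genes.

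**Figure D2:**
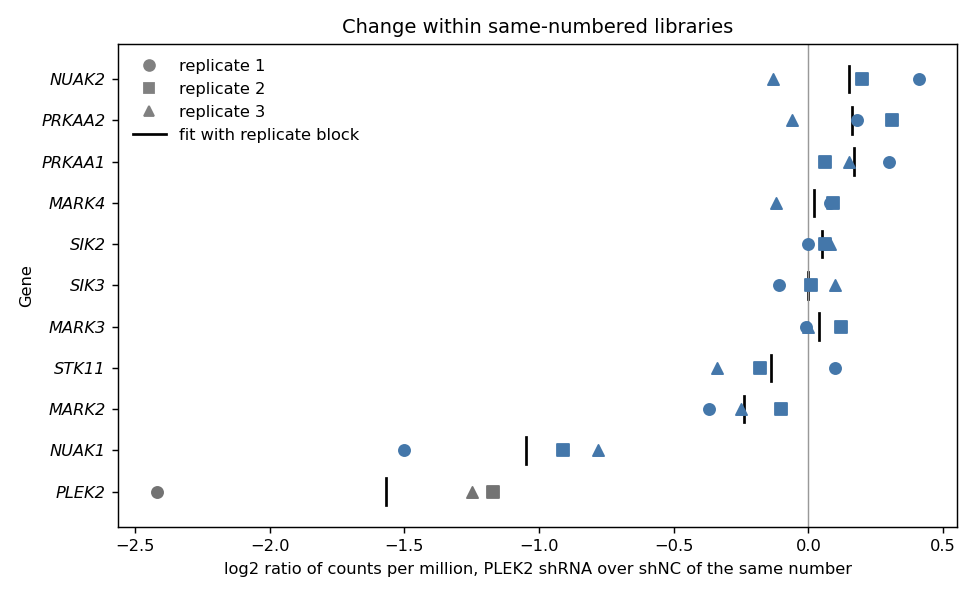
Log2 ratio of CPM, PLEK2 shRNA over shNC, within same-numbered libraries (symbols) and in the fit with the replicate block (black bars), for the 10 kinases and PLEK2. NUAK1 lies between -1.50 and -0.78 in the 3 pairs, whereas the pairs of the other 9 kinases lie between -0.37 and 0.41.

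To set the members against each other, FPKM was used, since it takes the length of the transcript into account. MARK3 was the most abundant, at a mean of 27.9 FPKM over the 6 libraries, followed by MARK2 (26.9), STK11 (24.0) and MARK4 (19.1). PRKAA1 (10.6), SIK3 (7.26) and SIK2 (6.98) formed a middle group. NUAK1 (2.16) and NUAK2 (1.87) were low, and PRKAA2 (0.133) was the lowest. Among all tested genes, 76.0% had a lower mean FPKM than MARK3, 18.9% a lower one than NUAK1 and 0.494% a lower one than PRKAA2.

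The ranges over the 6 libraries overlapped between MARK3 and MARK2, between MARK2 and STK11 and between STK11 and MARK4. Within libraries, MARK3 was above MARK2 in 4 of 6 and MARK2 above STK11 in 5 of 6, so these neighbours did not differ beyond their spread. STK11 was above MARK4 in 6 of 6 libraries, so the order of this pair held within each library although the ranges overlapped. SIK3 and SIK2 overlapped too (6.74 to 7.59 and 6.66 to 7.32 FPKM), as did NUAK1 and NUAK2 (1.04 to 3.05 and 1.37 to 2.35 FPKM). The range of MARK4 lay above that of PRKAA1, that of PRKAA1 above that of SIK3, that of SIK2 above that of NUAK1, and that of NUAK2 above that of PRKAA2. The 9 kinases summed to between 99.7 and 109 FPKM, and MARK2, MARK3 and MARK4 made up 68.1% to 73.8% of this sum.

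**Figure D3:**
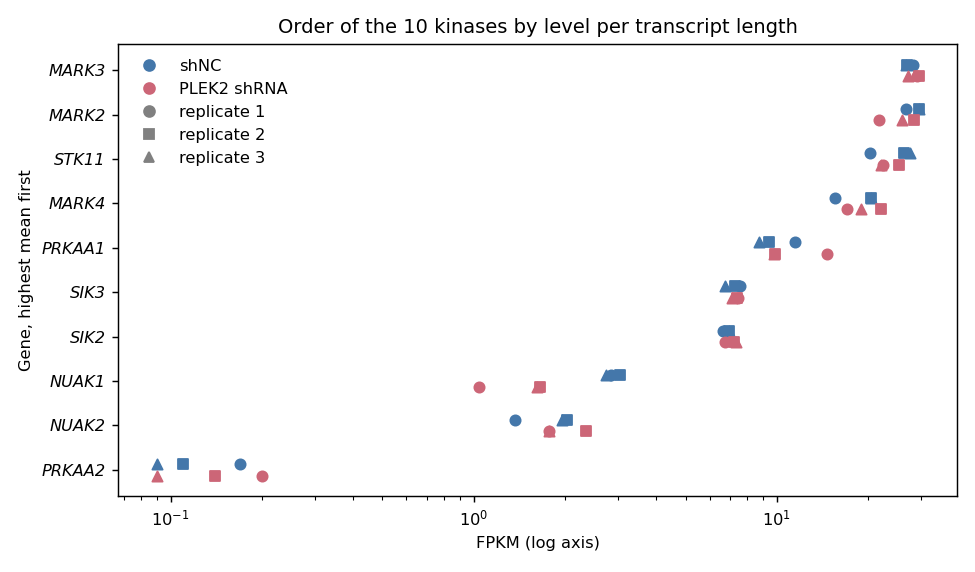
FPKM of the 10 kinases in each library on a log axis, ordered by the mean over the 6 libraries, with shNC in blue and PLEK2 shRNA in red. NUAK1 is the member whose blue and red points part, 2.74 to 3.05 against 1.04 to 1.65 FPKM.

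The sequence of the PLEK2 shRNA was compared with the transcripts of the members. The target and the guide strand are shown 5′ to 3′, with the seed (bases 2 to 8 of the guide) and the site it pairs with in capitals.
PLEK2 shRNA target: gctggtgtactacAAGCTTGa
guide: tCAAGCTTgtagtacaccagc

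The full target of 21 bases was found in 1 of 19630 coding transcripts of GENCODE 44, that of PLEK2. The site AAGCTTG was searched on the sense strand and lies in the 3′ UTR of 10.6% of the tested genes (1318 of 12451 with a coding transcript). Anywhere in the transcript, the site lies in 19.8% of these genes (2463 of 12451), so most of them lack it. The transcript of NUAK1 does not hold these 7 letters in its 5′ UTR, its coding sequence or its 3′ UTR of 3460 nt. The longest run of the target in NUAK1 was 8 nt, and a run of at least 9 nt occurred in 12.4% of tested genes other than PLEK2. Among the 10 members, STK11 holds the site, at 2 places in its 3′ UTR of 858 nt. These are matches of letters in 1 transcript per gene and do not show whether the guide acts on any of them.

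The neighbours of NUAK1 on the chromosome were examined next. The nearest genes of the expression table on either side are C12orf75, 667248 nt away at lower coordinates, and CKAP4, a protein of the endoplasmic reticulum, 98927 nt away at higher coordinates. C12orf75 had a log2 change of -0.07 (SE 0.07; blocked edgeR fit, adjusted p = 0.647). CKAP4 had a log2 change of -0.01 (SE 0.06; blocked edgeR fit, adjusted p = 0.927). Without the block, edgeR gave an adjusted p of 0.968 for C12orf75 and 0.995 for CKAP4. Neither passed the test.

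Genes around the kinases were then taken from 8 lists that hold 75 genes, of which 72 were tested. In edgeR's test, 0 of the 72 passed an adjusted p of 0.05 over all genes tested, with or without the block. Without the block, 0 of all 12959 genes passed, so that result says nothing about the lists. With it, 0.849% of all genes passed. At an unadjusted p under 0.05, edgeR called 1 of 72 (1.39%, beside 3.09% of all genes) without the block and 15 of 72 (20.8%, beside 18.3% of all genes) with it. The groups lay apart in 7 (9.72%, beside 9.21%), and 0 reached 1.5-fold with the block, beside 1.13% of all genes. Their median log2 change with the block was -0.008. DESeq2 called 0 of the 72 without the block, beside 12 of all 12959 genes, and 0 with it, beside 45. With replicate 1 left out of both groups, the blocked edgeR fit called 3 of 71 (GSK3B, MLXIPL and NR4A1), beside 528 of 13014 genes tested. With replicate 3 left out it called 2 of 72, PPP1R12A among them, beside 297 of 12988 genes tested. Both fits hold few libraries for their terms, so these calls are not read as changes of the genes named.

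Of the other AMPK-related kinases, 7 of 9 were tested, with changes between -0.23 and 0.12. BRSK2, a kinase best known from neurons, had the largest change, -0.23 (SE 0.08; blocked edgeR fit, adjusted p = 0.152). It was lower in all 3 pairs, at 21.4, 28.6 and 28.5 CPM with shNC and 19.5, 23.7 and 23.4 CPM with PLEK2 shRNA. Counts of SIK1 and SIK1B, which are near-identical copies, carried decimals and cannot be fully separated, and their log2 changes were 0.12 (SE 0.10) and 0.02 (SE 0.10) with the block.

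Of the AMPK regulatory subunits, 4 of 5 were tested, and PRKAB2, which encodes the beta 2 subunit, changed the most, by 0.18 (SE 0.07; blocked edgeR fit, adjusted p = 0.199). Among the 7 LKB1 partners and other upstream kinases, STRADB, which encodes a partner of LKB1, was the largest at 0.26 (SE 0.10; blocked edgeR fit, adjusted p = 0.183). The groups of STRADB did not overlap, with 14.3, 15.1 and 12.5 CPM with shNC and a mean of 16.7 ± 0.89 CPM (SD, n = 3) with PLEK2 shRNA. STRADA and CAB39, the common partners of LKB1, were at 0.00 (SE 0.07) and -0.00 (SE 0.05) on the log2 scale with the block.

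Among the 6 partners of NUAK1, GSK3B, a kinase of glycogen and Wnt signalling, was the largest at 0.19 (SE 0.07; blocked edgeR fit, adjusted p = 0.168). Its groups, at 76.3 to 92.8 CPM with shNC and 92.8 to 97.7 CPM with PLEK2 shRNA, were parted by less than the printed digits, since both replicates 1 stood at 92.8 CPM. PPP1R12A, which encodes MYPT1, had a change of 0.18 (SE 0.07; blocked edgeR fit, adjusted p = 0.177). The pairs of PPP1R12A gave 0.30, 0.25 and -0.01.

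Among the 20 AMPK substrates and effectors, 14 had a negative value (70.0%, beside 50.4% of all genes) and 6 a positive one, with a median of -0.027. MLXIPL, a glucose-sensing transcription factor, was the largest at -0.29 (SE 0.09; blocked edgeR fit, adjusted p = 0.129), from pairs of 0.02, -0.43 and -0.45. ACACA, the acetyl-CoA carboxylase that AMPK inhibits, was at -0.02 (SE 0.07).

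Of the 7 SIK substrates, HDAC9 had the largest value, 0.32 (SE 0.34; blocked edgeR fit, adjusted p = 0.652), on a mean of 14.3 counts per library. The CRTC coactivators did not share a sign, with log2 changes of -0.17 (SE 0.06; adjusted p = 0.182) for CRTC1, -0.12 (SE 0.06; adjusted p = 0.305) for CRTC2 and 0.06 (SE 0.06; adjusted p = 0.621) for CRTC3 in edgeR's fit with the block. Of the 10 CREB and CRTC target genes, 7 had a positive value and 3 a negative one (30.0%, beside 50.4% of all genes). PDE4D, a cyclic AMP phosphodiesterase, was the largest at 0.51 (SE 0.34; blocked edgeR fit, adjusted p = 0.442), on a mean of 13.3 counts. NR4A1, an orphan nuclear receptor and early response gene, had the smallest adjusted p of the 72 genes, 0.116 in edgeR with the block, at -0.24 (SE 0.07).

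Of the 11 MARK substrates and polarity proteins, 10 had a negative value, with a median log2 change of -0.078, beside 50.4% of all genes with a negative value. The values were small, between -0.18 and 0.14, and 0 of 11 had an unadjusted p under 0.05 with the block. PARD6B, a subunit of the apical polarity complex, was the largest at -0.18 (SE 0.10; blocked edgeR fit, adjusted p = 0.346). MAP4, a microtubule-associated protein that MARKs phosphorylate, was at -0.09 (SE 0.06).

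**Figure D4:**
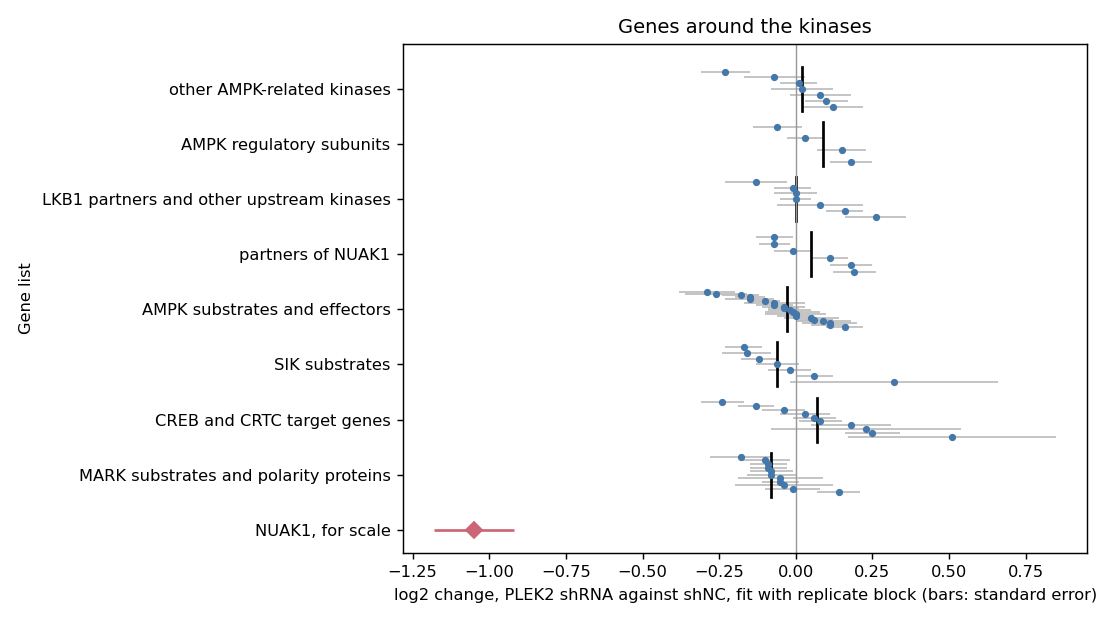
Log2 change with PLEK2 shRNA in the fit with the replicate block for the 72 tested genes of 8 lists (points, with the standard error as bars) and the median of each list (black lines), with NUAK1 for scale. The points lie between -0.29 and 0.51, and NUAK1 lies at -1.05.

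Finally, the genes whose profile over the 6 libraries was most like that of NUAK1 were sought among 10160 genes with a mean log2 CPM over 3. Likeness was the root mean squared difference between log2 CPM values, each gene centred on its own mean, and its median over these genes was 0.581. NIPSNAP1, a mitochondrial protein, was the closest at 0.0874, followed by ARL2BP (0.127), which binds the small GTPase ARL2, the keratin KRT15 (0.156) and the progranulin gene GRN (0.174). As in NUAK1, the lowest of the 6 values of each was in PLEK2 shRNA replicate 1, between -1.02 and -0.74 on the centred log2 scale beside -0.97 for NUAK1. The 3 shNC libraries of these 4 genes lay between 0.21 and 0.60. PLEK2 itself stood at rank 34 (0.332), with a deeper profile than NUAK1, MARK2 at rank 239 (0.426) and PRKAA1 at rank 9675 (0.743). These profiles include the contrast between the groups and the difference of replicate 1, so the likeness is a description of these 6 libraries.

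**Figure D5:**
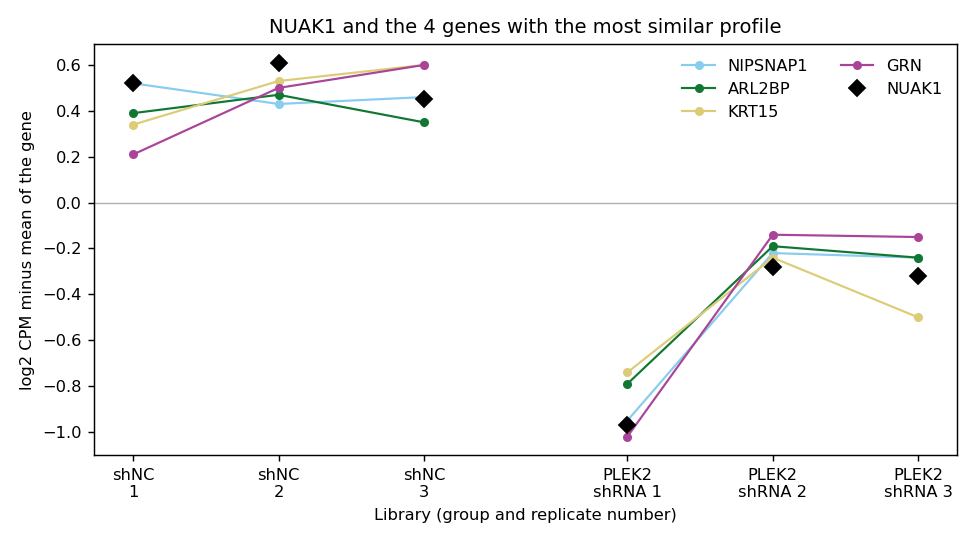
Log2 CPM of NUAK1 (black diamonds) and of the 4 genes with the most similar profile, each centred on its own mean, in the 6 libraries. Lines only join the points of 1 gene within a group. The points lie between 0.21 and 0.61 with shNC and below 0 with PLEK2 shRNA, lowest in replicate 1.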

How the data were processed

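Polyadenylated RNA of HCT116 cells was sequenced in 3 shNC and 3 PLEK2 shRNA libraries. The authors deposited an estimated count per gene and library, which need not be whole (84.2% to 85.4% of the values in a library were whole). The authors also deposited a value scaled to transcript length and library total, read here as FPKM since no unit is named. The length it implies was the same in all libraries within 5% for 92.2% of 3722 genes over 20 FPKM. The submitters' processing notes name HISAT2 2.0.4, Bowtie2 2.2.5, RSEM 1.2.12 and DESeq2 1.4.5, without their roles, and the mouse build GRCm38.p6, although the organism label and the gene symbols are human. The build behind the counts is thus not clear, and coordinates here are from GENCODE 44 on GRCh38.

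Estimated counts were rounded to whole numbers. edgeR 4.0.16 (R 4.3.3) was used with filterByExpr, TMM factors (0.9838 to 1.021) and the quasi-likelihood test for the group over all 6 libraries, with Benjamini-Hochberg adjustment over 12959 genes. Within-pair ratios are of CPM. A prior count of 2 was used for log2 CPM in the likeness measure. Python 3.11.15 with pandas 2.3.3 and matplotlib 3.10.9 was used for tables and figures. Libraries were paired by the replicate number they share, although the labels do not say what a number stands for. Same-numbered libraries deviated from their groups together, with correlations of 0.736, 0.558 and 0.554 over 10161 genes. Replicates 2 and 3 of opposite groups also correlated, at 0.358 and 0.355, so the data part replicate 1 from the rest more clearly than 2 from 3.

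Named genes were the 10 members and PLEK2, the largest change of each list with the block, list genes past an adjusted p of 0.05 (there were 0), the 5 genes most like NUAK1 and its neighbours. Some genes under this rule are not reported here. SIK1, SIK1B, STRADA, CAB39, PPP1R12A, ACACA, CRTC1, CRTC2, CRTC3, NR4A1 and MAP4 were named after their values were seen. The members and the lists, written from general knowledge, were chosen with earlier results of these data known. Alternatives were other scalings and filters, DESeq2 1.42.0, limma-trend (limma 3.58.1) on log2(FPKM + 1), the replicate block and leaving out libraries. The tests were tried on simulated counts. Protein sequences were not used here.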

Additional observations from a re-analysis of the deposited data

How the results depend on the processing

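NUAK1 was chosen by its change in these same libraries, and it kept its sign in all 18 alternatives. Its groups did not overlap, so leaving out libraries could not turn the sign, and the kept sign is no further support. Leaving out libraries moved the log2 change of NUAK1 between -1.17 and -0.84. For limma-trend on log2(FPKM + 1) it was -0.68, a scale that understates the change of low genes. MARK2 and STK11 were negative and SIK2 and MARK3 positive in all 18. PRKAA1 was positive in 17, MARK4 in 14, PRKAA2 in 15 of 17, NUAK2 in 17 with 0.00 in the other, and SIK3 stayed between -0.06 and 0.06. The replicate block moved the number of genes called by edgeR from 0 to 110, DESeq2 gave 12 (45 with the block), and library totals with the block gave 192. Leaving out libraries gave 0 to 528 genes, with 1 without PLEK2 shRNA replicate 1, and with the block 528 without replicate 1, 18 without replicate 2 and 297 without replicate 3. The change of PLEK2 was -1.54 (adjusted p = 0.684, edgeR) and passed the test with the block (-1.57; adjusted p = 0.00106, edgeR), with DESeq2 (-1.53; adjusted p = 5.09e-07, or -1.60 with the block) and with library totals and the block (-1.54; adjusted p = 0.000234, edgeR). It ranged from -1.78 to -1.21 when libraries were left out, with -1.26 (adjusted p = 0.0106, edgeR) without PLEK2 shRNA replicate 1, and -1.74 without PLEK2 shRNA replicate 3 and, in the blocked fit, without replicate 3 of both groups. Pathway genes called ranged from 0 to 3 when libraries were left out. In the blocked fit without replicate 1 they were GSK3B, MLXIPL and NR4A1 (3 of 71, beside 528 of 13014 genes tested). Without replicate 3 they were 2 of 72, PPP1R12A among them, beside 297 of 12988 genes tested. Both fits hold few libraries for their terms, so these calls are not read as changes of the genes named. All other alternatives called 0 of the pathway genes. With all 6 libraries, the block changed no call among the 72 genes. In the order of levels, 8 to 10 of the 10 ranks were kept, with MARK2 and MARK3 changing places with shNC alone (8) or without PLEK2 shRNA replicate 1. The order with PLEK2 shRNA alone was not among these settings. There the mean of NUAK1, 1.44 FPKM, lay below that of NUAK2, 1.96 FPKM, whereas with shNC they were 2.88 and 1.79 FPKM. The cause of these differences was not tested. Depth limits PRKAA2, HDAC9 and PDE4D.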
